A study of Mus musculus with 24 samples.

Results

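RNA levels in NIH3T3, an established fibroblast line from mouse embryos, were compared after transfection with a miR-29b mimic or a scrambled mimic, before any pulldown. The 3 miR-29b input libraries and the 3 scrambled input libraries numbered 1 to 3 were used, which are 6 of the 24 libraries of the series. The headers of the authors' table name these replicates lysed, and they name replicate 4, which was left out, intact. All genes and both directions of change were read. In both groups the mimic carried 3-cyanovinylcarbazole, a light-activated crosslinker, and was given at 10 nM. Fresh medium followed at 24 h, and harvest came 8 h after that. Libraries were made from 5 ng of RNA with the TotalScript kit, using random hexamers together with oligo-dT. The other libraries of the series are the pulldowns, the replicate 4 libraries and nuclear and cytoplasmic fractions with 1 library per condition. No untransfected cells were among the libraries compared, so a rise with miR-29b and a fall with the scrambled mimic cannot be told apart. In bulk RNA, fewer cells of a kind and less RNA per cell cannot be told apart either.

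MicroRNAs guide Argonaute proteins to mRNAs through short complementary sites, most of them in 3′ untranslated regions, and pairing of the seed near the 5′ end of the microRNA does most to define a target. Bound mRNAs are translated less and are deadenylated and degraded faster. The miR-29 family is best known in fibroblasts for sites in mRNAs of collagens and other matrix proteins, and its reported targets also include DNA methyltransferases, Tet dioxygenases and the survival factor Mcl1. The sequence of the mimics was not used here. The endogenous mature forms (RefSeq, GRCm38.p6) are shown with their seed, bases 2 to 8, in capitals. Whether the predicted sites used here pair with this seed was not checked, as no site sequences were used.
miR-29b-3p: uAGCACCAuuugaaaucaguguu
miR-29c-3p: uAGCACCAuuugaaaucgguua
miR-29a-3p: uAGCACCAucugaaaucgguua
This seed was held by 3 of the 1679 mature mouse microRNAs in the RefSeq table. An 8mer site for it reads TGGTGCTA in DNA letters. The mature miR-29b sequence lies at chr1:195037091-195037113 on the plus strand and at chr6:31063025-31063047 on the minus strand.

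The 6 libraries held 20844587 to 39735175 counts over the listed genes, which were 74.24% to 77.38% of the authors' library totals. Mitochondrial transcripts took 19.49% to 24.65% of these counts, ribosomal protein mRNAs 5.752% to 6.82%, and the single gene Gm26924 21.65% to 24.16%. Levels are given in CPM, counts scaled to the library size after TMM scaling, a method that sets library factors so that most genes do not shift. Of 17 fibroblast markers 13 were tested, with summed levels of 4879 to 5027 CPM with miR-29b and 4894 to 4990 CPM with the scrambled mimic. Among them Vim, Prrx1 and Ddr2 were well measured, Postn stood under 1 CPM in both groups, and Dcn, Lum, Fap and Tcf21 were not tested. Of the marker lists of other cell types, 3 of 12 muscle, 2 of 10 epithelial, 1 of 8 endothelial, 1 of 10 leukocyte and 2 of 10 neural genes were tested. EdgeR called 0 of these in either direction (1 muscle gene at an unadjusted p under 0.05, and 0 with DESeq2), and their summed levels reached at most 18.79 CPM. Of 9 adipocyte markers 6 were tested, with summed levels of 1202 to 1259 CPM against 1055 to 1061 CPM. The lipase Lpl, which carries a miR-29 site mark, rose by 0.44, and the regulator Pparg fell by 0.18 (edgeR), a call lost without replicate 3 of the miR-29b input or replicate 3 of the scrambled input (edgeR adjusted p = 0.0662 to 0.0686). Whether libraries of a group stem from different cultures is not in the labels. The p-values therefore rest on a spread between samples that may be technical.

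Many small differences separated the mimics. Of 12084 genes tested, 1331 rose with miR-29b (11%) and 1612 fell (13.3%) at an adjusted p under 0.05 (edgeR quasi-likelihood test, two-sided, 3 against 3 libraries). By at least 2-fold, 25 rose (0.207%) and 34 fell (0.281%), and by at least 1.5-fold 138 rose (1.14%) and 244 fell (2.02%). The libraries of the groups did not overlap in 2307 genes that were higher (19.1%) and 2597 that were lower (21.5%). The test used group means only and left out the replicate number. With the replicate number as a block 2194 rose (18.2%) and 2452 fell (20.3%), among them all genes called without it. With the 6 pulldown libraries in the same fit, which then share its spread, 82 genes remained higher and 95 lower. Leaving out replicate 3 gave 791 higher and 895 lower for the miR-29b input, and 829 and 894 for the scrambled input. Leaving out replicate 1 of the miR-29b input gave 1070 lower. Adding replicate 4 of both inputs left 0 and 0 (edgeR; 324 and 254 at an unadjusted p under 0.05), or 33 and 22 with the replicate block. Of the lists described next, the fit with the pulldowns called 6 interferon and 1 S-phase gene lower and 1 lysosomal and 1 cholesterol gene higher, and with replicate 4 added each of these 4 counts was 0 (edgeR), or 10, 0, 0 and 1 with the replicate block.

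Most tested genes of the interferon response, the program by which cells answer foreign RNA and viruses, fell. Of 57 tested genes of the interferon and foreign-RNA list 42 fell and 3 rose (edgeR), where 13.3% and 11% of all genes did. The median log2 change of the list was −0.34, against −0.0019 over all genes. Its summed level was 14860 to 15240 CPM in the miR-29b libraries and 16960 to 17170 CPM in the scrambled ones. Rsad2 (ENSMUSG00000020641; chr12:26442743-26456452), which encodes the antiviral enzyme viperin, stood at 31.3, 30.9 and 30.6 CPM with miR-29b and at 80.4, 85.7 and 80.2 CPM with the scrambled mimic. Every miR-29b library lay under every scrambled one, and Rsad2 fell by 1.41 on the log2 scale (± 0.048 SE, edgeR adjusted p = 1.4e-06). Cxcl10, a chemokine that attracts T cells, stood at 23.9, 23.7 and 23.4 CPM against 55.9, 55.1 and 56.6 CPM. It also fell with no overlap, by 1.24 (± 0.046 SE, edgeR adjusted p = 1.4e-06).

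Ifit1, which binds foreign RNA, stood at 596, 603 and 604 CPM with miR-29b and at 1003, 1025 and 1036 CPM with the scrambled mimic. The groups lay apart, and Ifit1 fell by 0.77 (± 0.041 SE, edgeR adjusted p = 9.9e-06). Its relative Ifit2 averaged 355 ± 28.1 against 735 ± 60.5 CPM (SD, n = 3) and fell by 1.05 (edgeR adjusted p = 3.7e-05). The guanylate-binding proteins, interferon-induced GTPases, included Gbp7, which fell by 1.30, and Gbp2, which fell by 0.65 (edgeR adjusted p = 2.5e-06 and 3.3e-05). Parp14, an ADP-ribosyltransferase, fell by 0.90, and Cd274, the checkpoint ligand PD-L1, by 0.94 (edgeR adjusted p = 1.6e-05 and 2.0e-05). Cxcl9, another T cell chemokine, averaged 2.94 ± 0.349 against 5.72 ± 0.488 CPM (SD, n = 3) and fell by 0.97 (edgeR adjusted p = 0.0012). The DNA-sensor family members Ifi203 and Ifi204 fell by 0.91 and 0.85 (edgeR), but copies of this family and of the Gbp family are alike in sequence, so reads may be split between them. Cd274, Cxcl9, Ifi203 and Ifi204 are on no list. They were named by the size of their fall or by a small p, so they add nothing to the counts of the interferon list. In the pulldown libraries Rsad2 stood at 887, 1283 and 1073 CPM with miR-29b and at 74.9, 32.8 and 36.8 CPM with the scrambled mimic, so it was higher there by 4.50 (edgeR adjusted p = 0.000122) and lower in the input, while Cxcl10 and Ifit1 were not called in the pulldown (−0.42 and −0.46). Gbp7 carries a mark of a predicted site, and the others named here do not.

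Part of the list did not follow. Isg15, a ubiquitin-like modifier, stood at 367, 340.5 and 345 CPM against 386, 358 and 357 CPM. These ranges overlap, and its log2 change of −0.065 ± 0.051 SE did not pass (edgeR adjusted p = 0.4, and 0.0455 with the replicate block). The 3 that rose, named after their values were seen, were the antigen-presentation genes H2-K1 and H2-D1, by 0.25 and 0.28, and the interferon-induced gene Ifi27, by 0.27 (edgeR), and with the block 5 rose. Ifi27 was not called without replicate 1 or 3 of the miR-29b input or replicate 2 or 3 of the scrambled input (edgeR adjusted p = 0.0921 to 0.148), nor with the authors' totals (edgeR adjusted p = 0.0708) or no filter (edgeR adjusted p = 0.0519). H2-K1 lay at −0.60 in the cytoplasm and −0.72 in the nucleus, where the single pairs run opposite to its rise here. The single pairs of the other input libraries also had negative medians for this list, at −0.53 in the cytoplasm, −0.46 in the nucleus and −0.52 in replicate 4, and 55, 53 and 51 of the 57 genes lay below 0. Rsad2 was below 0 in both fractions, at −1.55 and −1.22, and at 1.39 in replicate 4, where its level was 3.69 CPM with miR-29b and 1.34 CPM with the scrambled mimic. Other named genes of the list also stood low in replicate 4. Ifit1 stood there at 21.8 CPM with miR-29b and 43.8 CPM with the scrambled mimic, where its lysed-set means were 601 and 1021 CPM. In the same order, Gbp2 stood there at 1.91 and 4.56 CPM and Cxcl10 at 0.586 and 0.609 CPM. The replicate 4 ratios of such genes rest on low levels.

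**Figure D1:**
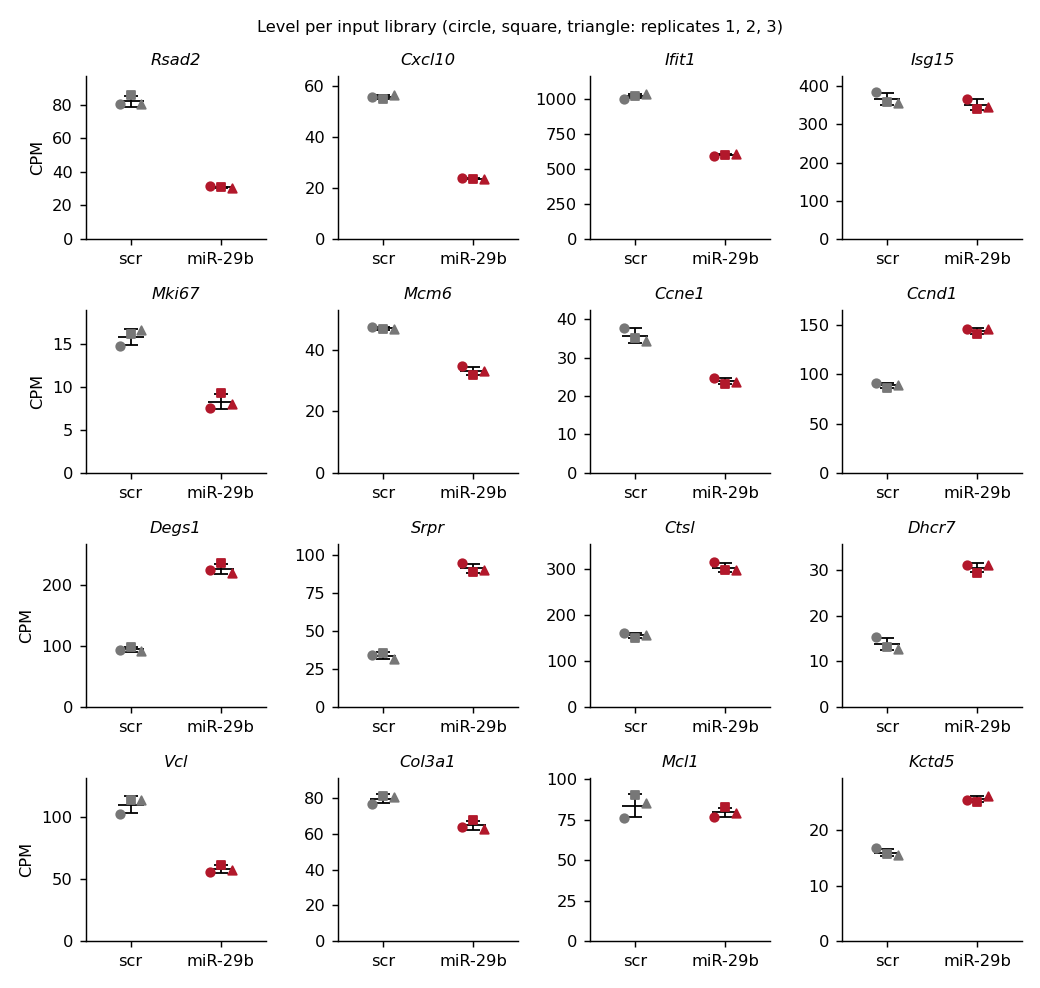
CPM of 16 genes in each of the 6 input libraries, on a linear axis from 0 in each panel; points are single libraries of the scrambled and miR-29b groups, their shape gives the replicate, and bars give the mean ± SD (n = 3). The groups lie apart for Rsad2, Cxcl10 and Ifit1 (lower with miR-29b) and for Degs1, Srpr and Ctsl (higher), and they overlap for Isg15 and Mcl1.

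Interferon-activated transcription factors bind the interferon-stimulated response element, searched as GAAA, any 2 bases and GAAA again, on both strands in the 250 bases before the start site (RefSeq promoter windows, GRCm38.p6). It was found in 18 of 44 genes of the list that have a window (40.9%), against 3.27% of the 8449 tested genes with a window and 2.98% of all 32851 windows. Of the genes of the list that fell 15 of 33 held it, and of those not called 3 of 9. Over all genes with a window, 70 of 1209 that fell (5.79%) and 28 of 1014 that rose (2.76%) held it. For interferon genes described here, the stretch around a match, in capitals, is printed along the strand of the gene, to set Isg15 beside genes that fell.
Rsad2, chr12:26456538-26456597, minus strand: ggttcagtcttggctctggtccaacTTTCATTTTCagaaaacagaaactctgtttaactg
Cxcl10, chr5:92349068-92349127, minus strand: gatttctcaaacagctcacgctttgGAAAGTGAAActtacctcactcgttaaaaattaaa
Ifit1, chr19:34640779-34640838, plus strand: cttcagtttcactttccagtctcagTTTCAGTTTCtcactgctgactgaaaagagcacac
Gbp7, chr3:142530258-142530317, plus strand: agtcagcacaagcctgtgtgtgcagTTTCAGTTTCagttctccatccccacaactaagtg
Gbp2, chr3:142620579-142620638, plus strand: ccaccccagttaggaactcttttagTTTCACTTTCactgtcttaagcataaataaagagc
Isg15, chr4:156200850-156200909, minus strand: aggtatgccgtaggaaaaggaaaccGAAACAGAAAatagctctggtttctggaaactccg
Genes are printed only where a match was found, and the search gave none for Ifit2, which fell. Isg15, which was not called, holds the element, and so do the 5 printed genes that fell. Only the match nearest the start site is in capitals, and the stretches of Isg15 and Ifit1 hold further matches. A match describes the letters of this window and is not a measured binding site.

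Most tested genes of the list for DNA replication and mitosis fell too. Of 42 tested genes of the S-phase and mitosis list 29 fell (69.05%, against 13.3% of all genes), with a median of −0.37. EdgeR called 0 of them higher (0 at an unadjusted p under 0.05 and 0 with DESeq2). The summed level was 632.9 to 647.2 CPM with miR-29b and 800.4 to 807.8 CPM with the scrambled mimic. Without replicate 3 of the miR-29b input 19 fell. Mki67 (ENSMUSG00000031004; chr7:135689784-135716450), the proliferation marker Ki-67, stood at 7.57, 9.26 and 8.07 CPM against 14.8, 16.1 and 16.6 CPM. Its groups did not overlap, and it fell by 0.94 (± 0.093 SE, edgeR adjusted p = 0.00021). Top2a, the topoisomerase that untangles chromosomes before division, stood at 9.85, 11.2 and 10.5 CPM against 18.5, 17.5 and 17.6 CPM. It fell by 0.77, again without overlap (± 0.074 SE, edgeR adjusted p = 0.00019).

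All 6 subunits of the replicative MCM helicase fell. Mcm6 went from 46.9 ± 0.397 to 33.2 ± 1.33 CPM (SD, n = 3), a fall of 0.50 (edgeR adjusted p = 0.00021), and Mcm4, Mcm5, Mcm3, Mcm7 and Mcm2 fell by 0.50, 0.42, 0.36, 0.33 and 0.25 (edgeR adjusted p up to 0.022). Mcm2 was not called without replicate 2 or 3 of the miR-29b input or replicate 1 or 2 of the scrambled input (edgeR adjusted p = 0.0538 to 0.0942). Mcm7 was not called without replicate 3 of the miR-29b input or replicate 3 of the scrambled input (edgeR adjusted p = 0.0515 to 0.0544). Tpx2, a spindle assembly factor, fell by 0.50 (edgeR adjusted p = 0.00035). The genes that follow were named by the size of their fall and by no list, and most reach the floor of 5 CPM for naming only in the scrambled group. Blm, a helicase of DNA repair, fell by 1.19, Ercc6l, a helicase of mitotic chromosomes, by 1.19, Mastl, a mitotic kinase, by 1.04, and Ticrr, which helps to start replication, by 1.03 (edgeR adjusted p = 0.00086, 0.00051, 0.0013 and 0.0024). Plk4, the kinase of centriole duplication, fell by 0.98, Atad2, a chromatin ATPase, by 0.99, and Mybl2, a transcription factor of dividing cells, by 0.99 (edgeR adjusted p = 0.00026, 0.00021 and 0.00086). Mybl2 carries a site mark, and the other genes of these last sentences do not. In the single pairs the medians of the list were nearer to 0, at −0.13 in the cytoplasm, −0.087 in the nucleus and −0.012 in replicate 4.

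The E2F element, the site of the factors that switch on S-phase genes, was searched as TTTCCCGC or TTTGGCGC on both strands of the same windows. It was found in 5 of 35 genes of the list (14.3%), against 3.07% of tested genes and 1.3% of all windows, and the 5 were among the 24 that fell. Among all genes with a window, 58 of 1209 that fell (4.8%) and 25 of 1014 that rose (2.47%) held it. Stretches of Mcm5 and Mcm6, which hold a match, are shown along the strand of the gene, with the match in capitals. Not every MCM gene was looked up for printing.
Mcm5, chr8:75109335-75109392, plus strand: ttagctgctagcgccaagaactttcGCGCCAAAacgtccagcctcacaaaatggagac
Mcm6, chr1:128359720-128359777, minus strand: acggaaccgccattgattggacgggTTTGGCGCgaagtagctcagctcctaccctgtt

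The G1 cyclin and Rb list, which governs entry into S phase, moved both ways. Of 25 genes 8 fell (32%) and 3 rose (12%), against 13.3% and 11% of all genes. Leaving out replicate 1 or 3 of the miR-29b input or replicate 3 of the scrambled input gave 4, 4 and 3 that fell. Ccne1, cyclin E1, stood at 24.7, 23.1 and 23.7 CPM against 37.8, 35.1 and 34.2 CPM and fell by 0.58 (± 0.059 SE, edgeR adjusted p = 0.00024). Ccnd1, cyclin D1, went the opposite way, at 146, 141 and 146 CPM against 91.1, 86.3 and 89.3 CPM. It rose by 0.70 (± 0.044 SE, edgeR adjusted p = 2.1e-05), and the groups overlapped for neither cyclin. The other genes that rose, named after their values were seen, were the kinase inhibitors Cdkn1a, by 0.53, and Cdkn2b, by 0.49 (edgeR), and with the replicate block 6 rose.

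Cdkn1a, the inhibitor p21, is also a target of p53, the transcription factor of the DNA damage response. It stood at 55.4, 63.8 and 59 CPM against 41, 43.8 and 39 CPM, without overlap (edgeR adjusted p = 0.00062). Of 26 p53 target genes 8 rose (30.77%, against 11% of all genes), and edgeR called 0 lower (0 at an unadjusted p under 0.05 and 0 with DESeq2). Their median was 0.15, and in the single pairs it was −0.021 in the cytoplasm, −0.054 in the nucleus and 0.47 in replicate 4. Zmat3, an RNA-binding protein, rose by 0.65, Phlda3, a pleckstrin homology domain protein, by 0.45, and Ei24, a protein of the endoplasmic reticulum, by 0.26 (edgeR adjusted p = 3.3e-05, 0.00017 and 0.0062). Replication-dependent histones, which are made in S phase, had a median of −0.44 over 45 genes. Of these 5 fell (11.11%, near the 13.3% of all genes), or 22 with the replicate block, where 20.3% of all genes fell. Leaving out 1 library gave counts from 0, without replicate 1 of the miR-29b input, to 13, without replicate 1 of the scrambled input. Without replicate 2 of either group 3 fell and without replicate 3 of either group 1 fell. Hist4h4 averaged 7.09 ± 1.83 against 11.6 ± 2.27 CPM (SD, n = 3) and fell by 0.71 (edgeR adjusted p = 0.026), but it was not called without replicate 1 or 2 of the miR-29b input or replicate 2 or 3 of the scrambled input (edgeR adjusted p = 0.0611 to 0.129). Histone genes are near-identical copies, so their counts are uncertain.

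The genes described next were named by the size of their rise or by a small p, and by no list. Srpr (ENSMUSG00000032042; chr9:35211203-35217003), a subunit of the receptor that brings ribosomes to the endoplasmic reticulum, stood at 94.5, 88.8 and 90.3 CPM with miR-29b and at 34.1, 35.6 and 31.4 CPM with the scrambled mimic. The groups lay far apart, and Srpr rose by 1.44 (± 0.057 SE, edgeR adjusted p = 1.4e-06), with a pulldown log2 change of 3.29. Sec61a1, the channel through which proteins enter that compartment, stood at 126, 128 and 127 CPM against 59, 54.3 and 55.2 CPM. It rose by 1.18 with no overlap (± 0.047 SE, edgeR adjusted p = 1.4e-06). Degs1, which makes ceramide from dihydroceramide, stood at 224, 236 and 220.3 CPM against 92.7, 98 and 92 CPM. Its lowest miR-29b library lay above its highest scrambled one, and it rose by 1.27 (± 0.049 SE, edgeR adjusted p = 1.4e-06).

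Icmt, which methylates prenylated proteins, rose by 1.29, and Zmpste24, a protease that trims prenylated proteins such as prelamin A, by 0.93 (edgeR adjusted p = 2.5e-05 and 4.8e-05). Cog7, a Golgi tethering subunit, rose by 0.98, Tgoln1, a trans-Golgi protein, by 0.90, Tmem30a, a partner of lipid flippases, by 0.94, and Dynlt3, a dynein light chain, by 0.96 (edgeR adjusted p = 0.00016, 6.7e-06, 5.4e-05 and 2.5e-06). Phb, the mitochondrial scaffold prohibitin, rose by 1.02, Ppp1r13l, an inhibitor of p53, by 1.19, Cdc26, a subunit of the anaphase-promoting complex, by 0.97, and Psmb5, a catalytic subunit of the proteasome, by 0.92 (edgeR adjusted p = 4.8e-05, 0.0002, 3.7e-05 and 0.00021). The kinase gene Prkx rose by 0.91 and the transporter-family gene Slc10a3 by 1.01 (edgeR adjusted p = 0.00022 and 0.00012). Smaller but tight rises were those of Setd3, the actin histidine methyltransferase, by 0.80, Ptgs1, the prostaglandin synthase COX-1, by 0.78, and Nptn, the adhesion protein neuroplastin, by 0.72 (edgeR adjusted p = 2.0e-05, 1.6e-05 and 1.9e-05). The genes named here as the highest carry no site mark.

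Of 34 genes of the lysosome and autophagy list 18 rose (52.94%) and 1 fell (2.941%) (edgeR), against 11% and 13.3% of all genes. The median was 0.22, and the summed level was 7355 to 7825 CPM against 6115 to 6314 CPM. Ctsl (ENSMUSG00000021477; chr13:64361890-64370772), the protease cathepsin L, stood at 313, 297 and 296 CPM against 160.0, 148 and 156 CPM. It rose by 0.96 without overlap (± 0.048 SE, edgeR adjusted p = 6.7e-06). Ctsb, cathepsin B, averaged 566 ± 15.4 against 304 ± 10.9 CPM (SD, n = 3) and rose by 0.90 (edgeR adjusted p = 8.1e-06). Ctsz, another cathepsin, rose by 0.58, and Psap, the precursor of the saposins that help to break down sphingolipids, by 0.47 (edgeR adjusted p = 0.00017 and 0.00017). The gene that fell, named after its value was seen, was Atg12, a conjugation factor of autophagy, at −0.24; its call was lost without replicate 3 of the scrambled input (edgeR adjusted p = 0.0624), and 2 fell without replicate 1 of the scrambled input or with the block. In the single pairs the medians of this list were negative, at −0.23 in the cytoplasm, −0.39 in the nucleus and −0.26 in replicate 4. Ctsl and Ctsb lay above 0 in all 3 pairs, at 0.27, 0.16 and 0.21 and at 0.41, 0.35 and 0.33, while Psap lay at −0.10, −0.38 and −0.47. Whether these pairs differ from the lysed set was not tested. The CLEAR element of lysosomal promoters, TCACGTGA, which reads the same on both strands, was found in 4 of 24 windows of the list (16.7%), against 1.95% of tested genes and 0.785% of all windows. Among all genes with a window, 39 of 1209 that fell (3.23%) and 24 of 1014 that rose (2.37%) held it.

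Genes of cholesterol synthesis and uptake rose in 11 (40.74%) and fell in 1 (3.704%) of 27 cases (edgeR), against 11% and 13.3% of all genes. Their median was 0.17, and 7 rose without replicate 3 of the scrambled input. Dhcr7 (ENSMUSG00000058454; chr7:143823167-143848410), which carries out the last reduction on the way to cholesterol, stood at 31.2, 29.4 and 31 CPM against 15.3, 13.2 and 12.8 CPM. It rose by 1.16 without overlap (± 0.076 SE, edgeR adjusted p = 2.5e-05). Tm7sf2, a sterol reductase, rose by 0.44, and Mvk, mevalonate kinase, by 0.37 (edgeR adjusted p = 0.00036 and 0.0013). The gene that fell, named after its value was seen, was Hmgcs1, an early enzyme of the pathway, by 0.32, which lay at 3.22 in replicate 4; without replicate 1 of the miR-29b input or with the block 2 fell. The sterol element TCACNCCAC was found on either strand in 1 of 19 windows of the list, that of the gene that fell, against 1.23% of tested genes and 1.05% of all windows. Among all genes with a window, 1.24% of those that fell and 1.48% of those that rose held it. Insig1, a reported miR-29 target that restrains the pathway, overlapped between groups at 77.2 ± 9.32 against 74.6 ± 7.75 CPM (SD, n = 3; edgeR adjusted p = 0.77).

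**Figure D2:**
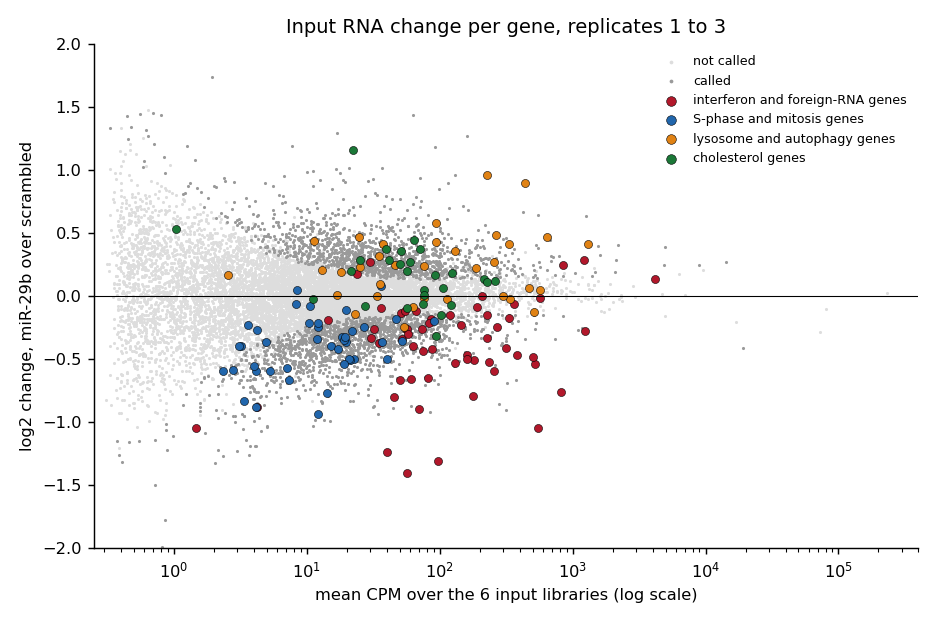
Log2 change of each tested gene (miR-29b over scrambled input, replicates 1 to 3) against its mean CPM on a log axis; grey dots are all tested genes, coloured dots are 4 gene lists, and 1 gene lies outside the drawn range. In these lists 42 of 57 interferon and 29 of 42 S-phase and mitosis genes fell, and 18 of 34 lysosome and 11 of 27 cholesterol genes rose. Over all tested genes 13.3% fell and 11% rose.

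Most reported miR-29 targets were not called, and their median lay slightly under 0. Of 117 listed targets 95 were in the table and 91 were tested. Of these 19 fell (20.88%), 12 rose (13.19%) and 60 were not called (edgeR), with a median of −0.074. Of all genes 13.3% fell and 11% rose, with a median of −0.0019, and the difference was not tested. With the replicate block 33 fell, where 20.3% of all genes did. Without replicate 1 of the miR-29b input or replicate 3 of the scrambled input 12 fell, and without replicate 3 of either group 7 rose. Among the miR-29b inputs, leaving out replicate 1 moved the median to −0.013 and leaving out replicate 3 to −0.038. Among the scrambled inputs, leaving out replicate 2 moved it to −0.039. Of the 57 targets with a site mark 15 fell (26.32%) and 5 rose (8.772%), with a median of −0.14. Of the 34 without a mark 4 fell (11.76%) and 7 rose (20.59%), with a median of −0.013. In the pulldown, a separate edgeR fit of 6 other libraries over 12547 genes in which 24.8% were higher with miR-29b and 24.9% lower, 74 of the 91 targets were called higher.

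Collagens, the best-known targets, were split. Of 17 tested collagen genes 4 fell (23.53%) and 3 rose (17.65%), against 13.3% and 11% of all genes, with a median of 0.0027. With the block 7 fell, where 20.3% of all genes did. Col3a1 (ENSMUSG00000026043; chr1:45311538-45349706), a fibrillar collagen with an 8mer mark, stood at 64.1, 67.6 and 62.8 CPM against 77.1, 81.5 and 80.7 CPM. It fell by 0.30 without overlap (± 0.048 SE, edgeR adjusted p = 0.0023). Col4a1 and Col4a2, chains of basement membrane collagen, fell by 0.28 and 0.21, and Col1a1, a chain of type I collagen, by 0.19 (edgeR adjusted p = 0.0027, 0.008 and 0.032). Col4a2 was not called without replicate 3 of the scrambled input (edgeR adjusted p = 0.0539). Col1a1 was not called without replicate 1 or 3 of the miR-29b input or replicate 2 or 3 of the scrambled input (edgeR adjusted p = 0.0766 to 0.128). Its change shrank to −0.12 when replicate 1 of the miR-29b group was left out.

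Col1a2, the partner chain of Col1a1, lay the other way, at 485, 522 and 504 CPM against 464, 482 and 462 CPM. Its groups did not overlap, but its log2 change of 0.10 ± 0.046 SE did not pass (edgeR adjusted p = 0.14, and 0.00194 with the block). Col5a1 and Col5a2, chains of a collagen that regulates fibril width, overlapped between groups, at 0.15 and 0.0027 (edgeR adjusted p = 0.29 and 0.98). Col6a1, of the beaded filaments of type VI collagen, rose by 0.45 from 254 ± 11.7 to 348 ± 10.8 CPM (SD, n = 3), and Col16a1 rose by 0.52 (edgeR adjusted p = 0.00034 and 0.0049). The remaining collagen that rose, named after its value was seen, was Col6a2, by 0.16, which was not called without replicate 2 or 3 of the miR-29b input or replicate 2 or 3 of the scrambled input (edgeR adjusted p = 0.0533 to 0.127), nor with the authors' totals (edgeR adjusted p = 0.0599). Among other matrix targets, the fibrillin Fbn1, the matrix glycoprotein Sparc, the crosslinking oxidase Lox and the laminin chain Lamc1 had log2 changes of −0.34, −0.10, 0.13 and −0.17, none of which passed (edgeR adjusted p = 0.14, 0.25, 0.26 and 0.07). With the block the 4 passed (edgeR adjusted p = 0.048, 0.0018, 0.00015 and 0.0096). Igf1 and Dnmt3b stood under the filter on low counts, and Eln was not analysed here.

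Enzymes and chaperones that process collagen rose in 10 (47.62%) and fell in 3 (14.29%) of 21 genes (edgeR), with a median of 0.21. Of all genes 11% rose and 13.3% fell. In the single pairs the medians were −0.13 in the cytoplasm, −0.11 in the nucleus and 0.023 in replicate 4. With 12 libraries or replicate 4 added edgeR called 0 of the collagen processing genes in either direction. Bmp1, the procollagen proteinase, rose by 0.55, Pcolce, its enhancer, by 0.29, and Colgalt1, a collagen galactosyltransferase, by 0.29 (edgeR adjusted p = 0.0038, 0.0023 and 0.0016). Crtap, a subunit of the prolyl 3-hydroxylation complex, fell by 0.45 (edgeR adjusted p = 0.0018). The others that fell, named after their values were seen, were the lysyl hydroxylase Plod2, by 0.54, and Mia3, which loads collagen into transport vesicles, by 0.24. Mia3 was not called without replicate 1 or 3 of the miR-29b input or replicate 2 or 3 of the scrambled input (edgeR adjusted p = 0.0994 to 0.131), nor with DESeq2 (adjusted p = 0.0866). Among elastic fibre genes and proteoglycans, the fibulin Efemp1 rose by 0.45 and the proteoglycan biglycan, Bgn, by 0.40 (edgeR adjusted p = 0.00015 and 0.00035). The fibroblast marker Thy1 rose by 0.46 and the caveolar coat gene Cav1 by 0.39 (edgeR adjusted p = 0.0037 and 0.00067).

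The targets in DNA methylation that passed the test fell. Dnmt3a (ENSMUSG00000020661; chr12:3801559-3914443), a de novo methyltransferase, stood at 5.7, 7.15 and 6.01 CPM against 7.55, 9.46 and 8.66 CPM. Its groups lay apart by a narrow gap, and it fell by 0.45 (± 0.12 SE, edgeR adjusted p = 0.024). Tet2, a dioxygenase that starts demethylation, stood at 5.28, 6.38 and 7.55 CPM against 7.96, 8.39 and 9.62 CPM, also without overlap, and fell by 0.43 (± 0.14 SE, edgeR adjusted p = 0.045). Dnmt3a was not called without replicate 1 or 3 of the miR-29b input or replicate 2 or 3 of the scrambled input (edgeR adjusted p = 0.0745 to 0.0965). Tet2 was not called without replicate 1 or 2 of the miR-29b input or replicate 2 or 3 of the scrambled input (edgeR adjusted p = 0.078 to 0.199). Tet1, Tet3 and the glycosylase Tdg had log2 changes of −0.53, −0.14 and −0.45 and did not pass (edgeR adjusted p = 0.19, 0.62 and 0.17). Of the 17 genes of the DNA methylation list 6 fell (35.29%) and 1 rose (5.882%), against 13.3% and 11% of all genes, with a median of −0.28. Leaving out replicate 1 or 3 of the miR-29b input gave 2 and 3 that fell, and leaving out replicate 2 or 3 of the scrambled input gave 3 and 2. Uhrf1, which brings Dnmt1 to replicating DNA, fell by 0.68, and the glycosylase Smug1 by 0.48 (edgeR adjusted p = 0.00071 and 0.0043).

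Targets in survival and growth were mixed too. Mcl1 (ENSMUSG00000038612; chr3:95656944-95663179), a survival factor of the Bcl2 family, stood at 77, 82.6 and 79 CPM against 76, 90.3 and 85.1 CPM. The ranges overlapped, and its log2 change of −0.076 ± 0.065 SE did not pass (edgeR adjusted p = 0.45), while its log2 change in the pulldown was 5.06. Of 14 Bcl2 family genes 1 fell and 1 rose (7.143% each, against 13.3% and 11% of all genes). These were the pore-forming effector Bak1, which fell by 0.16, and the survival factor Bcl2l1, which rose by 0.31 (edgeR adjusted p = 0.029 and 0.0071). Bak1 was not called without replicate 1, 2 or 3 of the miR-29b input or replicate 1, 2 or 3 of the scrambled input (edgeR adjusted p = 0.0524 to 0.122), nor with the authors' totals (edgeR adjusted p = 0.0767). The proapoptotic targets Bbc3 and Bmf and the survival factor Bcl2 had log2 changes of −0.17, −0.14 and 0.37 and were not called, at means under 3 CPM.

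Cdk6, a kinase of G1, stood at 7.36, 7.77 and 7.19 CPM against 10.9, 11.2 and 11.8 CPM. It fell by 0.61 without overlap (± 0.081 SE, edgeR adjusted p = 0.00092). The transcription factor Klf4 fell by 0.51 (edgeR adjusted p = 0.0076). Hbp1, a transcriptional repressor with a pulldown log2 change of 4.70, stood at 50, 50 and 50.4 CPM against 57.1, 54.5 and 56.3 CPM. It fell by 0.16 without overlap (edgeR adjusted p = 0.027). Hbp1 was not called without replicate 1, 2 or 3 of the miR-29b input or replicate 1 or 3 of the scrambled input (edgeR adjusted p = 0.0677 to 0.12), nor with the authors' totals (edgeR adjusted p = 0.0625) or DESeq2 (adjusted p = 0.104).

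A few reported targets rose. Kctd5 (ENSMUSG00000016946; chr17:24047720-24073485), a ubiquitin ligase adaptor with an 8mer mark, stood at 25.6, 25.1 and 26.3 CPM against 16.8, 15.7 and 15.5 CPM. It rose by 0.68 without overlap (± 0.061 SE, edgeR adjusted p = 0.00012), and its pulldown log2 change was 3.79. Vdac1, the mitochondrial outer membrane channel, rose by 0.48, and Pik3r1, the regulatory subunit of PI3-kinase, by 0.27 (edgeR adjusted p = 0.00014 and 0.02). Pik3r1 was not called without replicate 2 or 3 of the miR-29b input or replicate 2 of the scrambled input (edgeR adjusted p = 0.0516 to 0.0745). The GTPase Cdc42, the phosphatase Ppm1d, the receptor Pdgfra, the lactate transporter Slc16a1 and the tropomyosin Tpm1 had log2 changes of −0.034, −0.026, 0.02, 0.047 and 0.056 and were not called (edgeR adjusted p of at least 0.37).

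**Figure D3:**
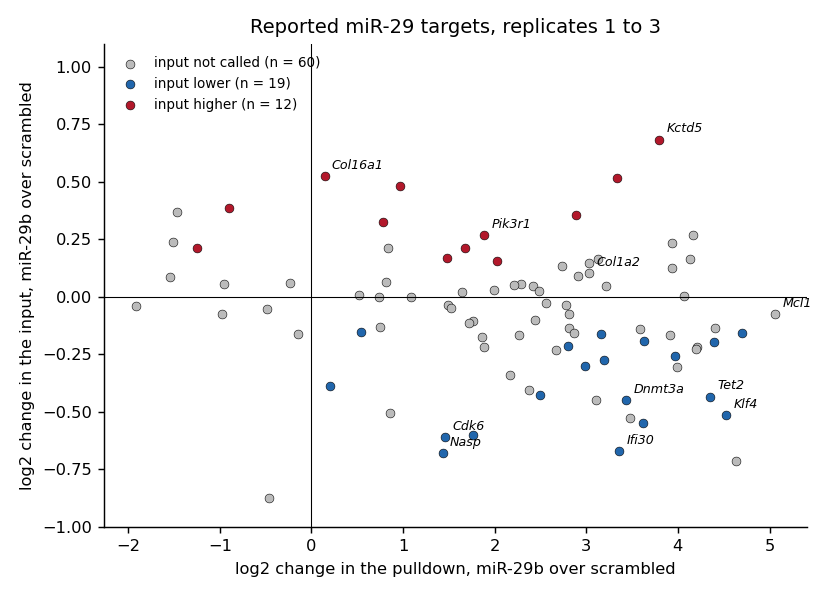
Log2 change in the input (y axis) against log2 change in the pulldown (x axis), miR-29b over scrambled, for the 91 tested reported targets in replicates 1 to 3; colours give the call in the input (19 lower, 12 higher, 60 not called). Mcl1 lies near 0 in the input at 5.06 in the pulldown, and Kctd5 is high on both axes.

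The authors' table marks genes with predicted miR-29 sites; the column names alone tell what the marks are. Over the 11045 protein-coding genes tested, of which 11.9% rose and 14.4% fell, 493 carried a mark. Of these 135 fell (27.38%) and 37 rose (7.505%), with a median of −0.13. Of the 10552 without a mark 13.75% fell and 12.07% rose, with a median of −0.0031. The medians of the marked genes in the same-numbered pairs of libraries were −0.12, −0.11 and −0.11. Of the marked genes 83 fell and 20 rose when replicate 3 of the miR-29b input was left out, 88 and 20 when replicate 3 of the scrambled input was, and 66 rose with the block. The median was −0.16 over 105 genes with an 8mer and a context mark, −0.26 over 40 with the 8mer mark alone, −0.20 over 57 with the context mark alone and −0.092 over 291 with another mark.

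The following genes fell and were named by a small p among marked or unmarked genes. Vcl (ENSMUSG00000021823; chr14:20929383-21033676), which encodes the focal adhesion protein vinculin, stood at 55.8, 61.5 and 57.5 CPM against 103, 114 and 114 CPM. It fell by 0.92 without overlap (± 0.059 SE, edgeR adjusted p = 2.3e-05). Daam1, a formin, fell by 1.19, Tmod3, a cap of actin filaments, by 0.65, and the tyrosine kinase Fer by 0.43 (edgeR adjusted p = 0.00036, 0.00029 and 0.00028). Nasp, a histone chaperone, fell by 0.68, Cbx5, a heterochromatin protein, by 0.48, Ifi30, a lysosomal thiol reductase, by 0.67, and Wbp1l by 0.70 (edgeR adjusted p = 0.00033, 0.00032, 2.5e-05 and 2.6e-05). The pulldown log2 changes of Vcl, Ifi30 and Tmod3 were 3.30, 3.36 and 2.22, and those of Wbp1l, Cbx5 and Fer were 0.40, 0.29 and 0.19, which were not called there. G3bp2, a stress granule protein, and Tnks2, a tankyrase, have no mark and fell by 0.89 and 0.80 (edgeR adjusted p = 1.6e-05 and 1.6e-05).

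Some marked genes rose. Impdh1, an enzyme of guanine nucleotide synthesis, rose by 0.96, Pgap2, of GPI-anchor remodelling, by 0.55, and Fem1b, a ubiquitin ligase adaptor, by 0.45 (edgeR adjusted p = 0.00025, 0.0008 and 0.0013). Pmp22, a membrane glycoprotein, rose by 0.35 and Tnfrsf1a, a receptor of tumour necrosis factor, by 0.35 (edgeR adjusted p = 0.0014 and 0.0018). Their pulldown log2 changes were 2.75, 4.33, 4.26, 3.27 and 1.74.

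**Figure D4:**
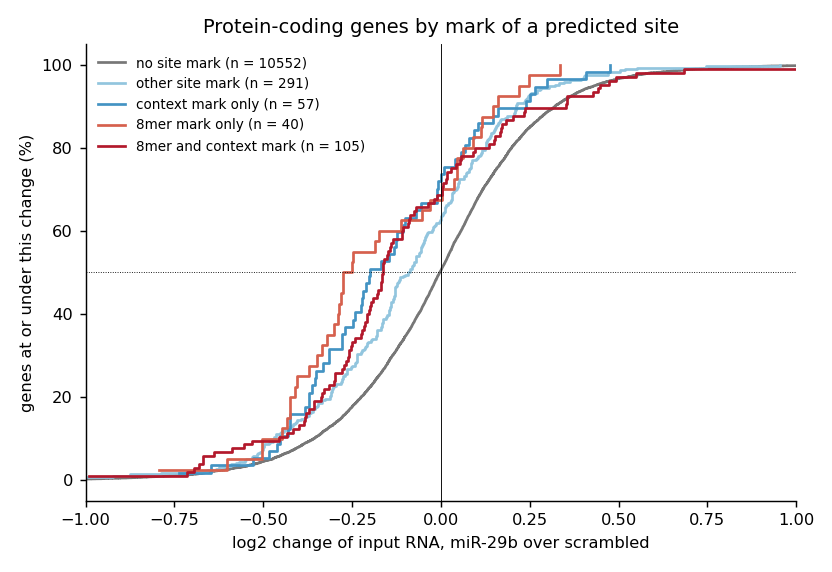
Cumulative share of protein-coding genes (%) at or under each log2 change of input RNA, miR-29b over scrambled, for 4 classes of site mark and for genes without a mark, drawn from −1 to 1. At a share of 50% the curves of the marked classes lie to the left of the unmarked one, with medians of −0.26, −0.20, −0.16 and −0.092 against −0.0031.

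The pulldown gave a second reading of the marked genes. Of the 493, 80.32% were higher in the miR-29b pulldown, against 26.86% of all protein-coding genes tested. In the input 14.36% of all protein-coding genes fell and 11.87% rose. Of the 396 marked genes higher there 28.03% fell in the input, with a median of −0.14, and of the 82 not called there 23.17% fell, with a median of −0.09. Of the 14 marked genes lower there 35.71% fell and 21.43% rose, with a median of −0.055. Of 2571 unmarked genes that were higher in the pulldown 15.99% fell and 16.18% rose, with a median of 0.002. Marked genes higher in the pulldown by under 2-fold, 2- to 4-fold, 4- to 8-fold and over 8-fold had input medians of −0.054, −0.12, −0.17 and −0.15 (46, 104, 121 and 125 genes). These differences between classes were not tested.

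Of 29 genes of the RISC and microRNA processing list 8 fell and 1 rose (edgeR), with a median of −0.066. These are 27.59% and 3.448%, against 13.3% and 11% of all genes, and the difference was not tested. In the single pairs the medians were −0.016 in the cytoplasm, 0.061 in the nucleus and 0.29 in replicate 4. Without replicate 1 or 3 of the miR-29b input or replicate 2 or 3 of the scrambled input, 5, 4, 5 and 4 fell, and with DESeq2 5 fell. Ago3, an Argonaute, stood at 11, 9.4 and 9.9 CPM against 14.4, 14.9 and 16 CPM and fell by 0.58 without overlap (± 0.084 SE, edgeR adjusted p = 0.0014). The decapping enzyme Dcp2 fell by 0.53 and the RNA-binding protein Fmr1 by 0.50 (edgeR adjusted p = 0.00037 and 0.00071). In the list of deadenylases 3 of 20 fell (15%, near the 13.3% of all genes), among them the scaffold Cnot1 by 0.36 (edgeR adjusted p = 0.0012), and edgeR called 0 higher (1 at an unadjusted p under 0.05 and 0 with DESeq2). TGF-beta and Smad genes had 4 of 30 lower (13.33%, near the 13.3% of all genes), or 8 with the block and 1 or 2 without replicate 2 or 3 of the miR-29b input or replicate 2 or 3 of the scrambled input. EdgeR called 0 of them higher (3 at an unadjusted p under 0.05 and 1 with DESeq2). Immediate-early genes had 7 of 27 lower (25.93%, against 13.3% of all genes), or 12 with the block, where 20.3% of all genes fell. When 1 library was left out 2 to 10 of them were lower. EdgeR called 0 immediate-early genes higher (0 at an unadjusted p under 0.05 and 0 with DESeq2).

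Transcripts of the mitochondrial genome moved unequally. Of 13 mRNAs 4 rose (30.77%) and 1 fell (7.692%) (edgeR), against 11% and 13.3% of all genes, with a median of 0.24. With the block 10 rose, where 18.2% of all genes did. Without replicate 1 of the scrambled input 8 rose, and without its replicate 3 the count was 2. The cytochrome c oxidase subunit mt-Co1 fell by 0.41, whereas mt-Cytb, cytochrome b, rose by 0.27 and mt-Nd1, a subunit of complex I, by 0.24 (edgeR adjusted p = 0.0015, 0.004 and 0.0089). In the single pairs mt-Co1 lay at 0.57 in the cytoplasm, −0.19 in the nucleus and 0.31 in replicate 4. The list had medians of 0.45, 0.078 and 0.31 there, and in the cytoplasm all 13 genes lay above 0. For mt-Nd1 the call was lost without replicate 3 of the scrambled input (edgeR adjusted p = 0.0527). Of 56 nuclear genes of oxidative phosphorylation 7 rose (12.5%, near the 11% of all genes), or 30 with the block, where 18.2% of all genes rose, and 3 to 17 when 1 library was left out, and edgeR called 0 lower (0 at an unadjusted p under 0.05 and 0 with DESeq2). Ndufb8, of complex I, rose by 0.76 and Sdhc, of complex II, by 0.52 (edgeR adjusted p = 0.0004 and 0.00053). Of 80 ribosomal protein mRNAs 2 rose (2.5%) and 1 fell (1.25%), against 11% and 13.3% of all genes, with a median of 0.036. With the block 30 rose and 3 fell, where 18.2% and 20.3% of all genes did. Rplp0 rose by 0.63 (edgeR adjusted p = 0.00014), although many ribosomal protein genes have near-identical pseudogene copies, so its count is uncertain. The nuclear-retained RNAs Malat1 and Neat1 fell by 0.37 and 0.36 (edgeR adjusted p = 0.015 and 0.0017). Malat1 was not called without replicate 1 or 3 of the miR-29b input or replicate 3 of the scrambled input (edgeR adjusted p = 0.0508 to 0.0555).

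The remaining lists moved both ways or little (edgeR). Over all genes 11% rose and 13.3% fell, or 18.2% and 20.3% with the block, and differences from these shares were not tested. In the matrix, 6 of 23 genes of glycoproteins and proteoglycans rose (26.09%) and 5 fell (21.74%). Of 29 genes of matrix proteases and their inhibitors 8 rose (27.59%) and 6 fell (20.69%). Of 14 genes of the basement membrane 2 rose (14.29%) and 3 fell (21.43%), and of 18 of elastic fibres and crosslinking 4 rose (22.22%) and 1 fell (5.556%). With the block 9 of the elastic fibre list rose. In the cytoskeleton and adhesion, 5 of 26 genes of the contractile apparatus rose (19.23%) and 4 fell (15.38%). Of 21 genes of integrins and adhesion 3 rose (14.29%) and 5 fell (23.81%). In signalling, 6 of 25 genes of Wnt regulation rose (24%) and 6 fell (24%). Of 31 genes of PDGF, IGF and PI3-kinase signalling 5 rose (16.13%) and 4 fell (12.9%). Of 21 genes of the NF-kB and cytokine list 3 rose (14.29%) and 4 fell (19.05%). In stress and metabolism, 5 of 28 genes of the unfolded protein response rose (17.86%) and 4 fell (14.29%). Of 23 genes of hypoxia and glycolysis 6 rose (26.09%) and 6 fell (26.09%), and of 16 of iron handling 2 rose (12.5%) and 4 fell (25%). Of 27 translation factors 5 fell (18.52%) and 1 rose (3.704%). Of 15 Klf and Sp transcription factors 3 fell (20%). With the block 12 translation factors and 8 Klf and Sp factors were lower. EdgeR called 0 Klf and Sp factors higher (1 at an unadjusted p under 0.05 and 0 with DESeq2).

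The other input libraries, with 1 library per mimic, were set beside these values without a test. In the cytoplasm 70.99% of the genes that rose in the lysed set and 73.25% of those that fell lay in the same direction, against 49.82% and 50.18% of all genes. For changes of at least 1.5-fold these shares were 88.71% and 83.47%. In the nucleus they were 50.11% and 46.13% for all called genes, against 49.93% and 50.05% of all genes, and 75% and 58.47% at 1.5-fold. In the pair of replicate 4, for which the miR-29b library was made from 6 ng of RNA, they were 43.43% and 44.48%, against 49.35% and 50.5% of all genes, and 71.01% and 42.62% at 1.5-fold. Single-pair ratios over 1.5-fold covered 15.9% of genes higher and 9.63% lower in replicate 4, 3.04% and 2.2% in the cytoplasm, and 2.76% and 4.26% in the nucleus.

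Replicate 4 stood apart for reported targets and marked genes. Its median was 1.14 over the reported targets and 0.81 over the marked genes, against −0.026 and −0.049 in the cytoplasm and −0.0039 and 0.047 in the nucleus. The replicate 4 ratio was larger for genes with more recovery in the lysed-set pulldown. Protein-coding genes higher there by under 2-fold, 2- to 4-fold, 4- to 8-fold and over 8-fold had replicate 4 medians of 0.064, 0.33, 0.82 and 1.71. The cause was not tested. Col1a1 lay at 2.45 in replicate 4, −0.23 in the cytoplasm and −0.33 in the nucleus, and Tet2 at 3.42, −0.12 and 0.10. Srpr and Degs1 lay above 0 in every set, at 1.96, 1.14 and 0.38 and at 0.81, 0.79 and 0.62. Ifit2 lay below 0 in every set, at −0.72, −0.92 and −0.79.

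**Figure D5:**
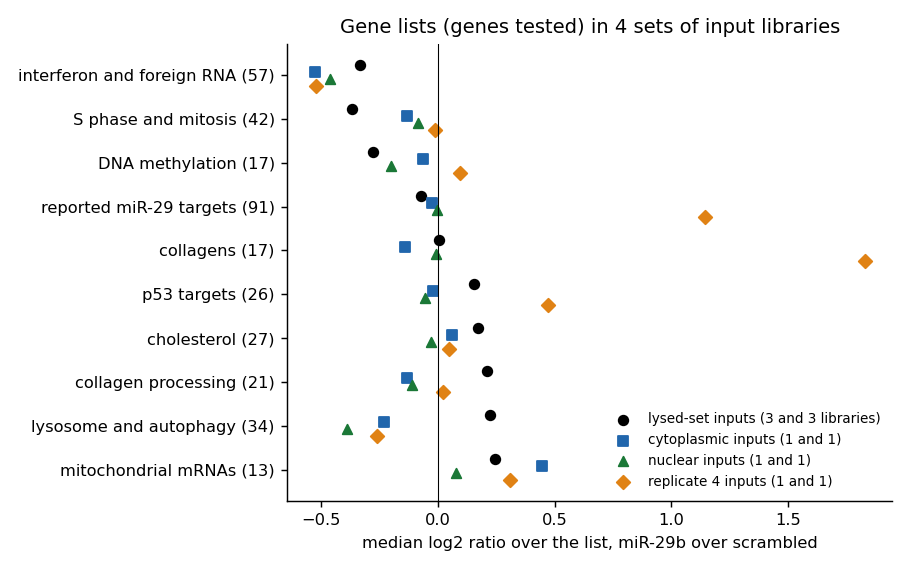
Median log2 ratio (miR-29b over scrambled) of 10 gene lists in the lysed-set inputs (3 and 3 libraries) and in the cytoplasmic, nuclear and replicate 4 inputs (1 and 1 library each); the number of genes tested is in brackets. Interferon genes lie below 0 in the 4 sets, and reported targets and collagens lie above 1 in replicate 4, at 1.14 and 1.83.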

How the data were processed

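RNA counts of NIH3T3 inputs were compared between mimics. Per the submitters' processing notes, the authors used STAR 2.3.0 and the mm10 build; how reads were counted, with or without strand, and how the listed genes were selected is not given in the sources used here, so overlapping and antisense genes cannot be told apart. The authors deposited whole-number counts per gene and library, and CPM values, whose library totals served as an alternative. The deposited score columns, headed PE by the authors with no formula stated, were not used. The deposited table had 14052 lines for 13534 genes, with 365 genes repeated with the same counts. The test was that of edgeR 4.0.16 under R 4.3.3 (filterByExpr, TMM, quasi-likelihood test, two-sided, Benjamini-Hochberg threshold of 0.05), in a fit of the 6 inputs; 12084 genes passed the filter and 1450 did not. Log2 ratios of single pairs used a prior count of 5. With 3 libraries per group the precision is limited. In simulated counts of 12001 genes, 50, 50, 48 and 48 genes were changed by 1.2-, 1.5-, 2- and 4-fold. Of these 8%, 82%, 95.8% and 100% were recovered, and there were 5 false calls. The simulation gave all genes the same dispersion and no replicate effect, and it changed far fewer genes than were called here. Its rates therefore do not give the recovery in these data. Same-group libraries differed by more than sampling noise (chi-square per degree of freedom 7.99 to 25.0).

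Replicate numbers in the labels were taken to pair the inputs, because same-numbered libraries deviated together (correlations 0.478, 0.347 and 0.145, all over 0.1). The main test, which gave the counts, SE and adjusted p unless the block is named, used group means only and left this pairing out. Its common dispersion was 0.00601, against 0.000992 with the replicate block. Of the unlike-numbered pairs, at −0.404 to 0.136, miR-29b replicate 2 with scrambled replicate 3 was also over 0.1.

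Named genes were the 20 highest and 20 lowest called log2 changes (no overlap, a RefSeq symbol, and 5 CPM or more on average in whichever group was higher), up to 4 members of each list with the smallest p, fixed genes, and the 10 with and 10 without a site mark with the smallest p in each direction; the text describes part of these, and some are not reported here. The members, lists and rules were chosen with earlier results of these data known. Alternatives were RLE and upper-quartile factors, the authors' totals, DESeq2 1.42.0, no filter, 2 CPM in 3 libraries, the replicate block, 12 libraries, adding replicate 4, and leaving out each library. Adding replicate 4 with the block, and list counts under each setting, were chosen after seeing the data.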

Additional observations from a re-analysis of the deposited data

Results flagged for a closer look

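Of the genes named in the text, 24 fell in replicates 1 to 3 but lay at least 1.5-fold higher with miR-29b in the single pair of replicate 4 inputs. The log2 ratios of replicate 4 were: Tet2 at 3.42, Hmgcs1 at 3.22, Col1a1 at 2.45, Hbp1 at 2.33, Col3a1 at 2.02, Vcl at 1.97, Col4a2 at 1.83, Klf4 at 1.7, Dnmt3a at 1.65, Col4a1 at 1.6, Neat1 at 1.55, Ifi30 at 1.5, Nasp at 1.45, Rsad2 at 1.39, Blm at 1.38, Daam1 at 1.24, Cdk6 at 1.18, Ago3 at 1.18, Top2a at 1.1, Bak1 at 1.005, Dcp2 at 0.806, G3bp2 at 0.762, Ifi203 at 0.746 and Cbx5 at 0.669. Malat1 fell in replicates 1 to 3 and lay at 0.681 in the single nuclear pair. The antigen-presentation genes rose in replicates 1 to 3 but lay below 0 in the fractions, H2-K1 at −0.597 in the cytoplasm and −0.722 in the nucleus, and H2-D1 at −0.719 in the nucleus. Each of these pairs has 1 library per mimic, and the difference from the lysed set was not tested. Replicate 4 ratios were larger for genes with more pulldown recovery, with a median of 1.71 over protein-coding genes higher in the lysed-set pulldown by over 8-fold.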

How the results depend on the processing

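With RLE or upper-quartile factors, the authors' totals, DESeq2, no filter or at least 2 CPM in 3 libraries, the counts of genes that rose and fell stayed within 1.5 times 1331 and 1612. With the replicate block 2194 rose and 2452 fell; in the fit of 12 libraries 82 and 95, with replicate 4 added 0 and 0, and with replicate 4 and the replicate block 33 and 22 (edgeR). Leaving out 1 library gave 791 to 1428 higher and 894 to 1621 lower. The median of genes with a site mark (−0.13) was −0.124 with RLE factors, −0.123 with upper-quartile factors, −0.124 with DESeq2, −0.135 with no filter, −0.123 at 2 CPM and −0.1466 with 12 libraries; it turned to 0.176 with replicate 4 added and to 0.09955 with the replicate block as well, and it ran from −0.140 to −0.0875 when 1 library was left out. The median of reported targets (−0.074) was −0.053 with no filter and −0.044 at 2 CPM, turned to 0.317 with replicate 4 added and to 0.219 with the replicate block as well, and ran from −0.077 to −0.013 when 1 library was left out.

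Of 144 genes named, the replicate block called 6 that were not called without it (Isg15, Col1a2, Fbn1, Sparc, Lox and Lamc1) and changed no other call. Of 123 that were called, 83 lost the call with 12 libraries and all 123 with replicate 4 added. With replicate 4 added, the log2 change turned positive for Top2a 0.39, Blm 0.11, Vcl 0.23, Nasp 0.021, Dnmt3a 0.45, Tet2 2.11, Col1a1 0.96, Col3a1 0.61, Col4a2 0.25, Hbp1 0.41, Klf4 0.34, Cdk6 0.36, Bak1 0.20, Ago3 0.32, Malat1 0.025, Neat1 0.027 and Hmgcs1 1.28. With the replicate block as well it turned positive for Dnmt3a 0.080, Tet2 0.44, Col1a1 0.40, Col3a1 0.24, Col4a1 0.16, Col4a2 0.26, Hbp1 0.41, Klf4 0.019, Bak1 0.12, Neat1 0.088 and Hmgcs1 0.43. These values have edgeR adjusted p of at least 0.7. The cause of these changes was not tested. A change of at least 1.5-fold was reached by 138 of the 1331 genes that rose and by 244 of the 1612 that fell. Most calls therefore rest on smaller differences, for which 3 libraries per group give limited precision.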
